A study of Homo sapiens with 15 samples.

Results

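The comparison was between K562 cells exposed for 24 h to 0.5 µM and to 1 µM martinostat, the 2 highest doses of a dose series. It used 6 of the 15 mRNA libraries of the series, 3 per dose, picked by the dose that the labels give. The comparison itself was chosen with earlier results of these data known. Of the 60649 genes in the count table, 23711 had enough counts to be tested. The question was how far the transcript response still moved over this last dose step, and how large a change the data left room for in genes with good expression.

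K562 is a widely used human line from a chronic myeloid leukaemia. It carries the BCR-ABL fusion kinase and expresses many genes of red cell precursors. Martinostat is a small-molecule inhibitor of histone deacetylases (HDACs). HDACs remove acetyl groups from histones and other proteins, and their inhibition raises histone acetylation, turns on many genes that are silent in the cell and turns off others, often those that hold a cell's lineage identity. Drug response saturates where a higher dose no longer changes the readout, so saturation is a statement about how small a change is, and needs intervals rather than a missed test.

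The whole series consisted of untreated K562 cells and K562 cells given 0.15, 0.25, 0.5 or 1 µM martinostat for 24 h, with 3 numbered biological replicates in each of the 5 groups. All cells were of this 1 line in the same culture medium, and neither a solvent control nor another inhibitor was among these groups. The submitters' design text calls the replicates independent, and the p-values measure the spread between these samples. In bulk RNA, fewer cells with a transcript and less transcript per cell cannot be told apart.

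The 6 libraries held 23755510 to 30127199 counts each. Replicate 3 at 0.5 µM stood apart from the other 5. Levels are given as counts per 1e6 counts of the scaled library (CPM). Among the 10128 tested genes whose mean over all libraries reached 10 CPM, the median absolute log2 difference between replicates 1 and 2 at 0.5 µM was 0.152, whereas replicate 3 differed from them by 0.370 and 0.364. Its 10 most abundant genes took 5.82% of its counts, against 9.05% and 8.90% in replicates 1 and 2 and 7.75% to 8.36% at 1 µM. On the third principal component, which held 3.40% of the variance, it lay at -59.0 beside replicate 3 at 0.25 µM (-56.2), with all other libraries between -11.6 and 29.9. For this reason the main values are given with all libraries and, where they differ, without this one. In no pair among the 6 did the counts agree within sampling noise (chi-square of 6.15 to 121 per degree of freedom), so each was counted as its own sample. By the median absolute log2 difference, replicate 2 at 1 µM lay 0.185 and 0.216 from replicates 1 and 3, which lay 0.0959 apart. In every library of the series more genes had a count of 2 than of 1 (ratio 1.29 to 2.06). Whether both mates of a read pair were counted was not tested, and if they were, the totals and these chi-square values would be up to 2 times too high. The summed level of 7 K562 erythroid markers was 3153 to 3545 CPM in untreated cells, 621 to 949 at 0.5 µM and 841 to 972 at 1 µM. These markers were present, and their sum was reduced in both groups. HBG1 was the exception, at a mean of 126 CPM in untreated cells, 38.5 to 147 at 0.5 µM and 69.1 to 144 at 1 µM. Markers of B cells, T cells and endothelium summed to at most 8.98 CPM at either dose and their ranges overlapped between the doses. A fibroblast set (301 to 486 CPM), nearly all of it the collagen gene COL1A1, and an epithelial set (3051 to 5370 CPM), led by the keratin genes KRT8 and KRT18, were above the untreated level at both doses and overlapped between them. Other members of these sets lay the other way, EPCAM at 141 CPM in untreated cells and 18.6 to 23.8 in the 6 libraries, and COL1A2 at 18.9 and 7.72 to 12.4.

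No gene passed the test between 0.5 and 1 µM. edgeR's quasi-likelihood test on the counts, adjusted by the Benjamini-Hochberg method over all 23711 genes with the threshold at 0.05, called 0 genes (0%), and the lowest adjusted p was 1. At an unadjusted p under 0.05 there were 372 genes (1.57% of those tested), 201 higher (0.848%) and 171 lower (0.721%) at 1 µM. A calibrated test gives 5% of genes there without any change. With all libraries the test fell short of that share, and it reached 4.60% without replicate 3 at 0.5 µM. The absence of called genes alone therefore does not show sameness. DESeq2 also called 0 genes, with 445 under the unadjusted threshold, and limma-voom 0, with 459. By the simplest count, 683 genes (2.88%) had all 3 libraries at 1 µM above all 3 at 0.5 µM, and 651 (2.75%) had all 3 below.

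The step before it was of another size. Between 0.25 and 0.5 µM the same fit called 7211 genes (30.4%), of which 3409 were higher and 3802 lower at 0.5 µM. In genes at or above 10 CPM, the median absolute log2 fold change was 0.59 from untreated to 0.15 µM, 0.28 from 0.15 to 0.25 µM, 0.40 from 0.25 to 0.5 µM and 0.08 from 0.5 to 1 µM. The 95th percentile of that size was 2.37, 0.91, 1.58 and 0.26 in the same order. Genes called with a change over 2-fold numbered 2345, 339, 1452 and 0. The sizes therefore did not shrink evenly from step to step: the step from 0.25 to 0.5 µM was larger than the one before it, and the last was the smallest of the 4. The steps are of unlike ratio, since the last 2 double the dose and the step from 0.15 to 0.25 µM is less than a doubling. Only the last 2 are therefore compared at an equal ratio. Neighbouring steps share the libraries of the dose between them, so these values are set side by side without a test.

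**Figure D1:**
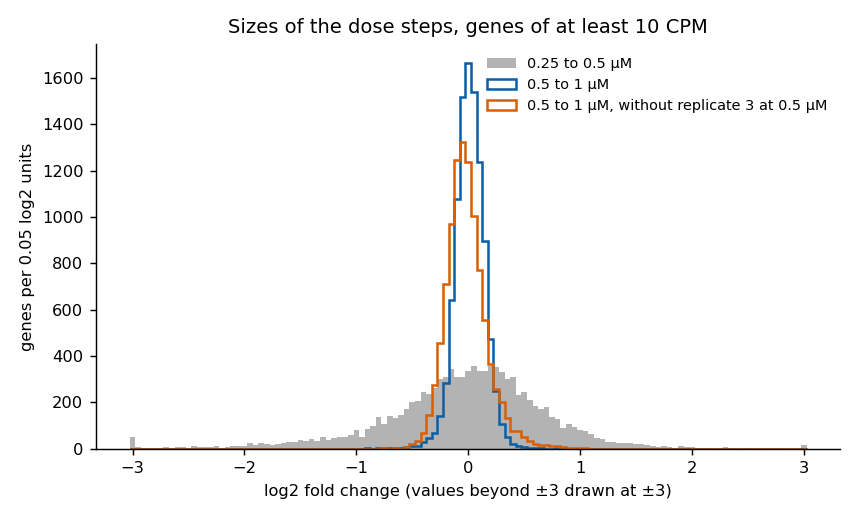
Number of genes per bin of 0.05 log2 units against the log2 fold change, for the 10128 genes at or above 10 CPM on average (values beyond 3 in size drawn at 3), for 0.25 to 0.5 µM (grey), 0.5 to 1 µM (blue) and 0.5 to 1 µM without replicate 3 at 0.5 µM (orange). Both curves of the last step are narrower than the grey one, with a median absolute change of 0.08 and 0.11 against 0.40.

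Whether the 2 last steps differed was tested gene by gene, as the change from 0.5 to 1 µM minus the change from 0.25 to 0.5 µM in 1 contrast, called the bend here. edgeR called the bend in 2277 genes (9.60%), 1342 with a positive and 935 with a negative difference. All 2277 were also called for the step from 0.25 to 0.5 µM, a positive bend in each case standing against a fall over that step and a negative bend against a rise. Since the last step held no called gene, a called bend is largely the earlier step with its sign turned. This overlap is therefore no separate support, and genes named by their bend describe that choice. Both parts of the contrast use the 0.5 µM libraries, so an error in those libraries enters both with opposite sign. With libraries scaled by their totals only, the split was 1480 positive and 652 negative of 2132.

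The largest positive bends belonged to genes that fell sharply by 0.5 µM and stayed low. NFE2 (ENSG00000123405.14, chr12:54292111-54301015, minus strand), the erythroid subunit of the NF-E2 transcription factor, was at 447, 371 and 333 CPM in the 3 libraries at 0.25 µM, at 14.4, 14.7 and 15.7 at 0.5 µM and at 12.2, 18.3 and 21.7 at 1 µM. The libraries at the 2 highest doses overlapped and lay far below those at 0.25 µM. Its log2 change was -4.68 ± 0.19 (SE, n = 3 against 3) over the earlier step (edgeR adjusted p = 3.43e-11) and 0.22 ± 0.19 over the last, with a 95% interval of the fold change of 0.881 to 1.53. CBFA2T3, a corepressor that works with GATA1 and TAL1, followed the same course, from 91.9, 83.8 and 77.6 CPM to 2.56, 2.80 and 3.18 and then 2.66, 3.35 and 4.32 CPM (last step 0.27 ± 0.18).

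The largest negative bends belonged to genes that were silent or low in untreated cells and rose late. MIR7-3HG (ENSG00000176840.12, chr19:4769031-4785077, plus strand), the host transcript of a copy of the microRNA miR-7, had no counts in untreated cells and 9.46, 10.7 and 10.4 CPM at 0.25 µM. It then reached 379, 343 and 478 CPM at 0.5 µM, and 373, 377 and 282 CPM at 1 µM, where 2 of the 3 libraries lay within the range at 0.5 µM and the third below it (last step -0.22 ± 0.17, fold interval 0.675 to 1.10). FTCD, an enzyme of histidine breakdown, rose from 2.68, 2.29 and 1.98 CPM to 52.8, 45.0 and 26.8 CPM, and its 3 libraries at 1 µM (44.8, 51.1 and 32.7) lay within that range (last step 0.05 ± 0.21). EPPK1, which encodes the cytoskeletal linker epiplakin, had a log2 change of 3.77 ± 0.28 over the earlier step (adjusted p = 1.67e-07) and of 0.00 ± 0.28 over the last.

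**Figure D2:**
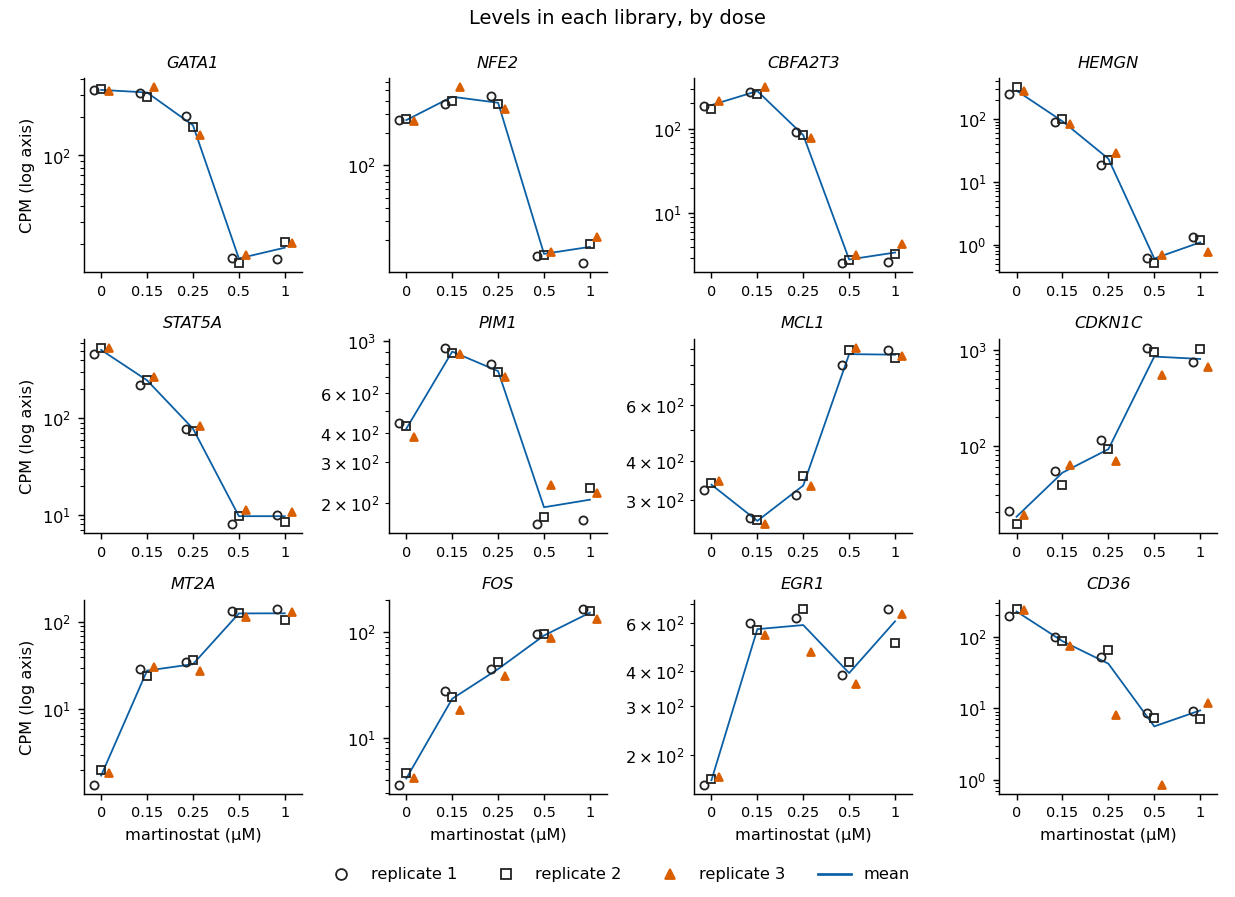
Level of 12 genes in CPM (log axis) in each of the 15 libraries against the martinostat dose in µM, with a circle, square or triangle for replicates 1, 2 and 3 and a line through the group means. GATA1, NFE2, CBFA2T3, HEMGN, STAT5A, PIM1, MCL1, CDKN1C and MT2A move between 0.25 and 0.5 µM far more than afterwards, FOS and EGR1 sit higher in all 3 libraries at 1 µM than at 0.5 µM, and CD36 has replicate 3 far below the other libraries at 0.5 µM.

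A gene that misses a test need not be unchanged, so the change that each gene could still have had was bounded. Each gene's log2 fold change and its standard error were set against a limit with 2 one-sided tests, adjusted over all 23711 genes, and a gene whose adjusted p was under 0.05 is called bounded. In this way 14292 genes (60.3%) were bounded within 2-fold and 7567 (31.9%) within 1.5-fold. Bounding depended on expression. Of the 10128 genes of at least 10 CPM, 9883 (97.6%) were bounded within 2-fold and 7144 (70.5%) within 1.5-fold, and the median half-width of their 95% intervals was 0.36 on the log2 scale.

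By class of mean expression, 2343 of 2379 genes of at least 100 CPM (98.5%) and 7540 of 7749 between 10 and 100 CPM (97.3%) were bounded within 2-fold. Between 1 and 10 CPM it was 4200 of 6228 (67.4%), and under 1 CPM 209 of 7355 (2.84%), with a median half-width of 1.42. For the other genes under 1 CPM, a change of 2-fold between the doses was not bounded at this depth. Above 10 CPM, more expression added little, since the median half-width was 0.36 between 10 and 100 CPM and 0.35 above. Among the genes of at least 10 CPM, 9451 of 9625 protein-coding genes (98.2%), 247 of 283 long non-coding RNAs (87.3%) and 173 of 203 pseudogenes (85.2%) were bounded within 2-fold.

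**Figure D3:**
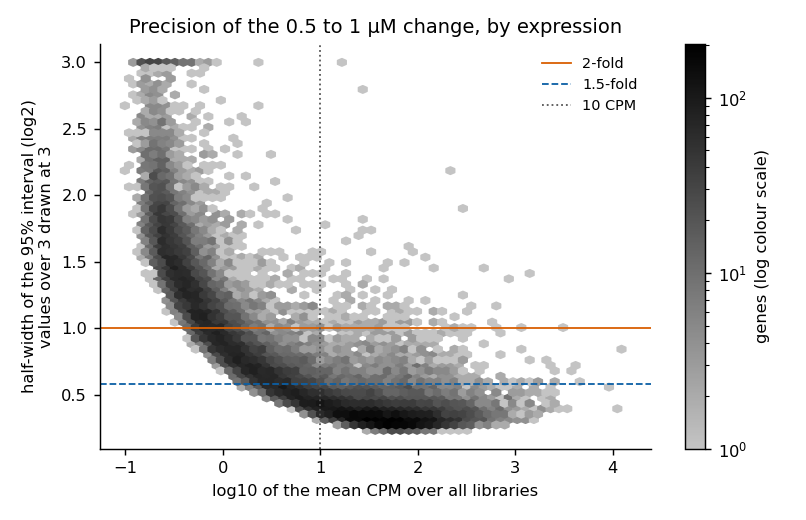
Half-width of the 95% interval of the 0.5 to 1 µM log2 fold change against the mean expression of the gene (log10 of CPM over all libraries), for all 23711 tested genes, with shade giving the number of genes on a log scale, horizontal lines at 2-fold and 1.5-fold and a dotted line at 10 CPM. The half-width falls from a median of 1.42 under 1 CPM to 0.36 between 10 and 100 CPM and is 0.35 at 100 CPM and above.

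SECISBP2, TRIM4 and STX6 were among the 6 genes with the narrowest intervals. SECISBP2, needed to insert selenocysteine during translation, was at 60.6, 62.3 and 65.7 CPM at 0.5 µM and at 61.7, 61.3 and 63.1 at 1 µM, with a fold interval of 0.838 to 1.16. TRIM4, which encodes a ubiquitin ligase, had risen over the earlier step from a mean of 63.5 ± 2.75 CPM (SD, n = 3) to 87.4 ± 3.85 (edgeR adjusted p = 0.00379) and then stood at 86.8 ± 2.57. STX6, a syntaxin of membrane transport, had a fold interval of 0.820 to 1.13. DNAJC21, also among the 6, was at 76.9, 79.1 and 82.4 CPM and then 68.4, 72.4 and 74.8. Its libraries did not overlap between the doses, with a log2 change of -0.15 ± 0.11 and a fold interval of 0.768 to 1.06. Even among these genes, a change inside such an interval could not be told from none.

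Of the 7211 genes called over the earlier step, 5742 were bounded within 2-fold over the last, and of the 4291 with at least 10 CPM it was 4247, of which 3208 were also bounded within 1.5-fold. Of the 2277 genes with a called bend, 1938 were bounded within 2-fold and 1192 within 1.5-fold. In the genes of at least 10 CPM, 7 had an estimated change over 2-fold, 1 higher and 6 lower at 1 µM, and none was called. They were named after their values were seen. The higher one was EIF3CL, a near-identical copy of a translation initiation factor gene, whose counts are uncertain for that reason and whose excess came from replicate 2 at 1 µM (5.25, 24.2 and 4.46 CPM). The lower ones were GOLGA8B, whose excess at 0.5 µM was in replicate 3 alone (10.8, 14.1 and 83.1 CPM against 13.2, 20.0 and 19.3 at 1 µM) and whose step was 0.49 without it, MIR223HG, the transcripts ENSG00000280441.3, ENSG00000280614.1 and ENSG00000281181.1, and ENSG00000275895.7, a locus that the annotation marks as an artifact. The last of these had 18.5, 23.0 and 7.31 CPM at 0.5 µM and 4.37, 3.76 and 8.26 at 1 µM, so its libraries overlapped through replicate 3 at each dose. ENSG00000280614.1 did not overlap between the doses, at 8.78 to 11.2 CPM at 0.5 µM and at most 3.51 CPM at 1 µM. Its log2 change was -1.87 ± 0.74 (edgeR unadjusted p = 0.0274). It was -1.95 ± 0.39 when only these 2 doses were fitted without replicate 3 at 0.5 µM. ENSG00000280441.3 and ENSG00000281181.1 had overlapping libraries. MIR223HG reached a mean of 10 CPM only through the lower doses and had at most 0.408 CPM in the 6 libraries, so its estimate carries no weight here.

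A second set was chosen without any of the 6 libraries, from the response at 0.25 µM. The choice is still not fully independent of the last step. Replicate 3 at 0.25 µM deviated from its group much as replicate 3 at 0.5 µM did (Pearson r of 0.865 across genes of at least 10 CPM). Against untreated cells, 8873 genes were higher (37.4%) and 5888 lower (24.8%) at 0.25 µM by edgeR, with median log2 changes of 2.76 and -1.03. From 0.5 to 1 µM the median change of the first set was -0.01, with 4307 genes higher and 4566 lower, and that of the second was 0.01, with 3210 higher and 2676 lower, beside a median of -0.00 for all genes tested. Of the genes of at least 10 CPM, 2159 of 2227 in the higher set (96.9%) and 4895 of 4933 in the lower set (99.2%) were bounded within 2-fold. Without replicate 3 at 0.5 µM the medians were 0.05 and -0.05, with 4999 genes higher and 3869 lower in the first set and 2209 higher and 3673 lower in the second. In the genes of at least 10 CPM, the higher set had 0.02 with all libraries and 0.01 without that replicate, and the lower set 0.01 and -0.06. Sets chosen at 0.15 µM in the same way kept their sign, at 0.01 and 0.05 for the higher and -0.01 and -0.06 for the lower genes. The sign of the shift thus held in some of these choices and not in others.

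ALPG, a placental-type alkaline phosphatase gene with no counts in untreated cells, was at 15.2, 17.4 and 12.6 CPM at 0.25 µM, at 66.8, 68.4 and 58.4 at 0.5 µM and at 66.2, 61.0 and 63.9 at 1 µM, and its fold interval for the last step was 0.769 to 1.27. SNCB, the gene of the neuronal protein beta-synuclein, likewise had no counts in untreated cells and was already at 53.2, 53.9 and 29.6 CPM at 0.25 µM. It stood at 61.2, 57.6 and 28.9 CPM at 0.5 µM and 48.8, 56.3 and 50.5 at 1 µM, where the groups overlapped, and it was called over neither of the 2 last steps. KIF1A, a motor protein of axonal transport, went from 660 CPM in untreated cells (mean, n = 3) to 67.2 at 0.25 µM, 32.8 at 0.5 µM and 37.9 at 1 µM, with a last step of 0.21 ± 0.17.

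**Figure D4:**
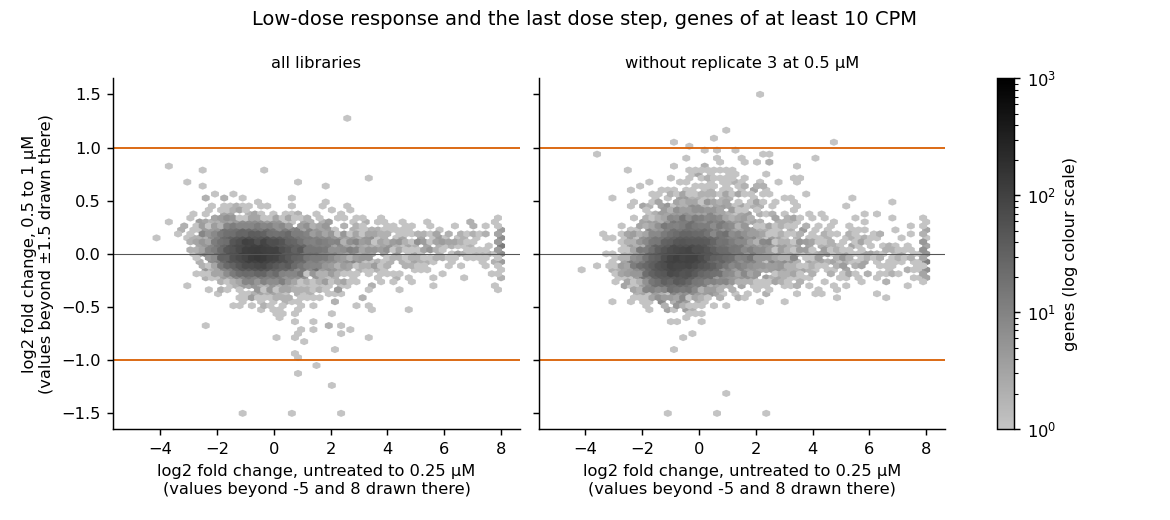
Log2 fold change from 0.5 to 1 µM against the log2 fold change from untreated to 0.25 µM for the genes of at least 10 CPM, with all libraries and without replicate 3 at 0.5 µM, shaded by the number of genes on a log scale and with orange lines at 2-fold. The axes share no library, though replicate 3 at 0.25 µM and replicate 3 at 0.5 µM deviated alike. The cloud lies along 0 on the vertical axis over the whole range of low-dose responses. Medians for all genes called higher and lower at 0.25 µM were -0.01 and 0.01 with all libraries and 0.05 and -0.05 without replicate 3 at 0.5 µM.

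Lists of genes, 20 in number, were read the same way, among them regulators of red cell identity, the BCR-ABL pathway, the cell cycle and stress responses. Their 228 tested genes held 0 called between 0.5 and 1 µM (background 0%) and 4 at an unadjusted p under 0.05 (1.75%, beside 1.57% of all tested genes), GFI1B, HEMGN, BUB1B and GAP43. Over the earlier step 123 had been called (53.9%), beside 30.4% of all tested genes, 14.4% higher and 16.0% lower. Of the 228, 216 were bounded within 2-fold (94.7%, beside 60.3%) and 125 within 1.5-fold. Of the 206 listed genes at or above 10 CPM, 200 were bounded within 2-fold (97.1%), close to the 97.6% of all such genes. The list medians lay between -0.04 and 0.25 on the log2 scale, and between -0.26 and 0.27 without replicate 3 at 0.5 µM.

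Erythroid regulators had the lowest median over the earlier step, -3.08, with 9 of 10 called lower and none higher, and 8 of 10 with a called bend (16.0%, 14.4% and 9.60% of all tested genes). Over the last step their median was 0.25 (0.27 without replicate 3 at 0.5 µM), 8 of 10 lay higher at 1 µM, none was called and 9 were bounded within 2-fold. GATA1 (ENSG00000102145.15, chrX:48786540-48794311, plus strand), the master transcription factor of the red cell lineage, was at 326, 335 and 323 CPM in untreated cells and 204, 168 and 146 at 0.25 µM. It was at 15.7, 14.2 and 16.6 CPM at 0.5 µM and at 15.3, 20.8 and 20.5 at 1 µM. The 2 highest doses overlapped through replicate 1 at 1 µM (last step 0.28 ± 0.16, fold interval 0.969 to 1.52). KLF1, the activator of adult globin genes, was at 3.40, 3.05 and 2.07 and then 3.44, 4.08 and 3.21 CPM, after 65.0, 49.3 and 33.7 CPM at 0.25 µM (last step 0.35 ± 0.23). GFI1B, a repressor of the same lineage, was at 3.14, 2.76 and 2.45 and then 3.37, 3.11 and 4.57 CPM, a log2 difference of 0.41 ± 0.16 (edgeR unadjusted p = 0.0211, adjusted p = 1). HEMGN, a nuclear protein of blood progenitors and the one regulator not bounded within 2-fold, was at 0.618, 0.502 and 0.680 and then 1.31, 1.17 and 0.767 CPM, without overlap but at a low level (0.83 ± 0.27, unadjusted p = 0.00582, adjusted p = 1). Relative to 18.6, 22.0 and 28.8 CPM at 0.25 µM and 279 in untreated cells, it remained low at both doses.

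Globin genes had a median of 0.25 over the last step, but of -0.05 without replicate 3 at 0.5 µM, and 4 of the 8 tested were bounded within 2-fold. The other 4 were HBA1, HBE1, HBG2 and HBZ, of which HBA1 and HBG2 have near copies in HBA2 and HBG1, with which reads may be shared. HBZ, the embryonic zeta chain, was at 81.6, 92.9 and 20.7 CPM at 0.5 µM and at 85.1, 74.1 and 93.4 at 1 µM, so that replicate 3 at 0.5 µM alone set the difference. The 13 genes of heme synthesis and iron handling had a median of 0.03 and were all bounded within 2-fold.

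In the BCR-ABL pathway all 14 tested genes were bounded within 1.5-fold, with a median of 0.04. STAT5A (ENSG00000126561.18, chr17:42287547-42311943, plus strand), a transcription factor activated by the kinase, had fallen from 76.4, 74.2 and 83.1 CPM at 0.25 µM to 7.95, 9.75 and 11.2 at 0.5 µM and was at 9.94, 8.29 and 10.6 at 1 µM (last step -0.01 ± 0.15, fold interval 0.796 to 1.25). PIM1, a survival kinase downstream of STAT5, was at 793, 736 and 697 CPM at 0.25 µM, then 162, 174 and 240, and then 169, 232 and 221 CPM. BCR and ABL1, the genes joined in the fusion, were not called for either step, with last-step changes of 0.10 ± 0.18 and 0.12 ± 0.17. Gene counts do not separate the fusion transcript from those of the normal genes.

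Genes of the BCL2 family, which set the threshold for apoptosis, moved in both directions over the earlier step (4 called higher and 3 lower of 13, beside 14.4% and 16.0% of all genes) and had a median of 0.06 over the last. MCL1 (ENSG00000143384.14, chr1:150560895-150579738, minus strand), an inhibitor of apoptosis, rose from 311, 359 and 333 CPM at 0.25 µM to 805, 894 and 908 at 0.5 µM and was at 893, 845 and 857 at 1 µM, a fold interval of 0.826 to 1.20. BCL2L1, which encodes the inhibitor BCL-XL, fell from 195, 181 and 148 CPM to 35.1, 39.7 and 29.9 and was then at 34.1, 35.5 and 39.0. It shares 41.3% of its exon bases with a gene on the opposite strand. BMF, an activator of apoptosis, rose from 34.0, 38.8 and 50.2 CPM to 73.8, 79.2 and 83.6 and then stood at 83.1, 77.0 and 82.0. BAD, a further activator, was the only member not bounded within 2-fold, and its 3 libraries at 0.5 µM (57.1, 21.7 and 8.40 CPM) spread as widely as those at 1 µM (18.0, 51.0 and 15.7).

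Of the 5 inhibitors of cyclin-dependent kinases, 3 were called higher and 1 lower over the earlier step (14.4% and 16.0% of all genes), and the list had a median of 0.06 over the last. CDKN1C (ENSG00000129757.15, chr11:2883213-2885775, minus strand), which encodes p57, rose from 114, 91.6 and 69.3 CPM at 0.25 µM to 1051, 963 and 553 at 0.5 µM and was at 751, 1015 and 657 at 1 µM, within the earlier range (last step -0.08 ± 0.25). CDKN1A, which encodes p21, was at 144, 145 and 92.3, then 369, 371 and 284, and then 340, 413 and 314 CPM (last step 0.06 ± 0.19). All 5 inhibitors, all 10 cyclins and kinases and all 16 DNA replication genes were bounded within 2-fold. Among 12 mitosis genes, all lay higher at 1 µM, with a median of 0.20, and 11 were bounded. The median was -0.06 without replicate 3 at 0.5 µM. The replication genes shifted alike, from 0.10 with 15 of 16 higher to -0.13. AURKB, a mitotic kinase and the mitosis gene that was not bounded, was at 54.0, 60.5 and 19.9 CPM at 0.5 µM and at 56.1, 56.4 and 54.2 at 1 µM, so that only replicate 3 at 0.5 µM lay apart.

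All 17 tested genes of the stress response and all 15 of autophagy and the lysosome were bounded within 2-fold, beside 97.6% of all genes at or above 10 CPM. Over the earlier step 10 of each list had been called higher, beside 14.4% of all tested genes. MT2A, a metal-binding metallothionein, rose from 34.7, 36.6 and 27.9 CPM to 135, 129 and 116 and was then at 143, 107 and 131 (last step 0.00 ± 0.15). SQSTM1, the autophagy receptor p62, rose from 134, 116 and 78.3 CPM to 669, 576 and 390 and was then at 596, 665 and 508. It shares 22.4% of its exon bases with a gene on the opposite strand. The genes of the HDAC family had a median of -0.00 over the last step, and 10 of 11 were bounded within 2-fold, HDAC9 being the exception. HDAC7, which fell over the earlier step (-1.70 ± 0.17, adjusted p = 4.85e-07), was at 11.7, 13.2 and 17.7 and then 13.2, 16.0 and 19.7 CPM.

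Of the other lists, all 10 acetyltransferase genes, all 6 bromodomain readers, all 6 replacement histone genes tested, all 16 ribosomal protein genes and all 10 housekeeping references were bounded within 2-fold, again near the share of all well-expressed genes (97.6%). Among 13 heat shock genes HSPA2, among 10 tubulin and gelsolin genes SCIN, and among 13 neuronal genes GAP43 and UCHL1 were not. These 4 were low at both doses, at most 2.07 CPM in any of the 6 libraries. TUBB3, a neuronal tubulin, rose from 3.90, 3.33 and 2.43 CPM to 40.6, 35.3 and 31.1 over the earlier step and was then at 47.3, 44.7 and 32.0, overlapping (last step 0.21 ± 0.19).

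The immediate-early genes FOS and EGR1 had the lowest p-values in the upward direction among genes at or above 10 CPM. FOS (ENSG00000170345.10, chr14:75278826-75282230, plus strand), a subunit of the AP-1 transcription factor, was at 95.6, 95.1 and 86.9 CPM at 0.5 µM and at 165, 158 and 133 at 1 µM. EGR1 (ENSG00000120738.8, chr5:138465479-138469303, plus strand), a zinc finger transcription factor that growth signals induce, was at 389, 433 and 362 and then 669, 504 and 645 CPM. In both genes all 3 libraries at 1 µM lay above all 3 at 0.5 µM, as in 2.88% of all tested genes. Both were chosen by p from this same comparison, so their separation and intervals describe that choice and are no separate support. The log2 change was 0.72 ± 0.16 for FOS (fold interval 1.31 to 2.07, edgeR unadjusted p = 0.000267) and 0.62 ± 0.16 for EGR1 (fold interval 1.22 to 1.93, unadjusted p = 0.000969), and neither passed the adjustment over 23711 genes (adjusted p = 1 for both). Without replicate 3 at 0.5 µM the changes were 0.68 and 0.56.

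The 2 genes had come to this step by different routes. FOS rose at every dose, from a mean of 4.10 CPM in untreated cells to 44.6 at 0.25 µM and 92.5 at 0.5 µM, and its bend was not called. EGR1 fell from 588 ± 105 CPM at 0.25 µM to 395 ± 36.0 at 0.5 µM (SD, n = 3, log2 change -0.58 ± 0.16, edgeR adjusted p = 0.00933), and its bend of 1.19 ± 0.27 was called (adjusted p = 0.00973). FOS was not bounded within 2-fold, and EGR1 was within 2-fold but not within 1.5-fold. SLC25A21, a mitochondrial carrier, and PUS1, a pseudouridine synthase, came next by their p-values. SLC25A21 was at 1.81, 2.22 and 2.47 and then 3.69, 3.14 and 3.49 CPM, and PUS1 at 8.83, 9.96 and 6.42 and then 11.3, 13.6 and 11.2 CPM. Neither overlapped between the doses, both had fallen over the earlier step, and both remained far below their untreated means of 59.4 and 102 CPM. SLC25A21 shares 37.2% of its exon bases with a gene on the opposite strand.

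In the downward direction, SMIM10L1, which encodes a small membrane protein, was at 14.4, 10.8 and 11.4 and then 9.19, 9.29 and 8.19 CPM (-0.46 ± 0.16, unadjusted p = 0.00905, adjusted p = 1). ING3, a subunit of the NuA4 acetyltransferase complex, was at 31.6, 31.4 and 35.0 and then 27.5, 23.0 and 24.5 CPM (-0.39 ± 0.15, unadjusted p = 0.0223, adjusted p = 1). Both were without overlap (2.75% of all tested genes in that direction), and both were bounded within 2-fold. Like the upward genes, they were chosen by p from this comparison. ENSG00000275895.7, the artifact locus named above, had a lower p than both (edgeR unadjusted p = 0.00318, log2 change -1.57 ± 0.44), with overlapping libraries.

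Leaving out replicate 3 at 0.5 µM, with the other groups kept in the fit, changed which genes stood near the threshold. edgeR then called 0 of 23711, with a lowest adjusted p of 0.890, and 1090 genes (4.60%) had an unadjusted p under 0.05, 816 higher and 274 lower at 1 µM. Of the genes under that threshold, 196 were shared by both fits, 52.7% of the 372 and 18.0% of the 1090. In the genes of at least 10 CPM, 26 were shared by the 59 with all libraries and the 323 without it, 44.1% of the first and 8.05% of the second. The median absolute change of these genes was 0.11 in place of 0.08, and 9782 (96.6%) were bounded within 2-fold and 6430 within 1.5-fold. Of the 9883 bounded with all libraries, 9717 were also bounded without it, 166 were not, and 65 others were gained. Over all tested genes 13273 (56.0%) were bounded within 2-fold. The bend was called in 3345 genes, of which 1904 had been called with all libraries in the same direction.

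Replicate 3 at 0.5 µM differed from the mean of replicates 1 and 2 by more than 2-fold in 1005 of the 10128 genes, higher in 322 and lower in 683. The difference moved with transcript length: split into 4 classes by summed exon length, genes of the shortest class (median 2463 bases) had a median of -0.48 on the log2 scale, and the classes of longer genes had -0.19, -0.07 and 0.03, up to a median length of 11402 bases. Long non-coding RNAs lay at 0.26 and pseudogenes at -0.27. Across these genes the deviation had a Pearson r of 0.865 with that of replicate 3 at 0.25 µM from its own group, a description over genes, which are not independent replicates. The part of RNA quality or batch in this deviation was not tested.

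The genes that follow were chosen by that deviation and are a description. CD36, a fatty acid receptor of red cell precursors (ENSG00000135218.19, chr7:80369575-80679277, plus strand), was at 8.52, 7.36 and 0.843 CPM at 0.5 µM and 9.09, 7.08 and 11.9 at 1 µM. Its last step was 0.78 ± 0.74 with all libraries and 0.23 ± 0.67 without replicate 3. MEG3, an imprinted long non-coding RNA (ENSG00000214548.18, chr14:100779410-100861031, plus strand), was at 200.3, 216 and 1586 CPM and then 327, 341 and 352, and its step turned from -0.97 ± 0.66 to 0.71 ± 0.35. GOLGA8A, a golgin gene with near-identical copies, was at 8.30, 11.0 and 81.2 CPM and then 16.2, 19.8 and 17.4.

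When only the 5 remaining libraries of both doses were fitted, a choice made after seeing the data, 2 genes were called, both higher at 1 µM and named for that reason. DDX39B, an RNA helicase of mRNA export, was at 34.9 and 38.8 CPM in replicates 1 and 2 at 0.5 µM and at 65.1, 62.4 and 67.0 at 1 µM, with 139 in the replicate left out (log2 change 0.82 ± 0.10, edgeR adjusted p = 0.0467). It shares 30.8% of its exon bases with another gene of the same strand. HERC2P2, a pseudogene with 93.1% of its exon bases under another gene, was at 11.3 and 14.3 and then 25.4, 31.4 and 28.5 CPM, with 113 in the replicate left out (1.16 ± 0.15, adjusted p = 0.0467). In both genes the replicate left out lay above all libraries at 1 µM, so that the direction rests on leaving it out.

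**Figure D5:**
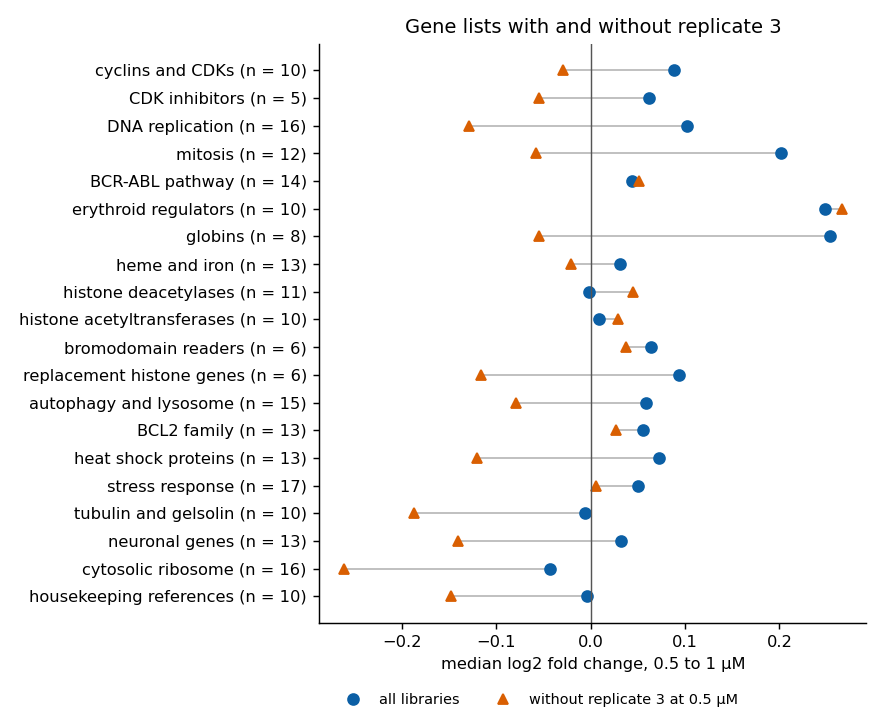
Median log2 fold change from 0.5 to 1 µM of the tested genes of each list, with all libraries and without replicate 3 at 0.5 µM, with the number of genes beside the name. Mitosis, DNA replication and globin genes have medians above 0 with all libraries (0.20, 0.10 and 0.25) and below 0 without the replicate (-0.06, -0.13 and -0.05), while the erythroid regulators stay at 0.25 and 0.27.

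Erythroid regulators (0.25 and 0.27) and the BCR-ABL pathway (0.04 and 0.05) had medians that hardly moved, and their genes did not deviate in replicate 3 as a set (medians -0.01 and 0.09). Mitosis (-0.85), DNA replication (-0.98), ribosomal protein (-0.86) and globin genes (-1.26) lay low in replicate 3, and their medians were lower without it. The ribosomal protein median went from -0.04 to -0.26. Without that replicate 15 of 16 ribosomal protein genes and 16 of 17 stress response genes were bounded within 2-fold. Of the 228 listed genes, 216 were bounded within 2-fold with all libraries and 216 without this replicate, 211 of them in both. Of the genes that could be bounded only without it, PKLR, the pyruvate kinase of red cells, was at 25.3, 24.5 and 6.72 and then 21.6, 23.1 and 24.2 CPM.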

How the data were processed

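Groups and replicate numbers came from the labels. The authors selected poly(A) RNA, built strand-keeping libraries, trimmed paired reads with Trim Galore 0.6.10 and Trimmomatic, aligned them to hg38 with HISAT2 2.2.1, used SAMtools 1.21 and counted reads per GENCODE 38 gene with featureCounts 1.5.3. The deposited counts were raw. Whether the counting used strand was not given in the sources used here. The deposited FPKM values, computed by the authors, were used only in alternatives, as log2(FPKM + 1) and log2(FPKM + 0.1) with limma 3.58.1.

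The counts were fitted in R 4.3.3 by edgeR 4.0.16 (filterByExpr by group, TMM scaling, robust quasi-likelihood fit of all 15 libraries with group as the only term, 10 residual degrees of freedom). CPM used the TMM-scaled library totals, which ranged from 23755510 to 32805574 before scaling. Intervals (95%) and bounds used the Wald standard error of that fit and a t distribution, and bounds were 2 one-sided tests at 2-fold and 1.5-fold. The code was tested on simulated data. Positions, exon lengths and exon overlap came from GENCODE 44 on hg38. Same-numbered libraries at 0.25 and 0.5 µM deviated from their group means together (r = 0.684, 0.698 and 0.865 for replicates 1, 2 and 3 across genes), though the labels do not say what the numbers share. Deviations from a mean of 3 depend on each other, so these values are not separate signs of pairing. Replicate 2 at 0.25 µM also correlated with replicate 1 at 0.5 µM (0.515), and replicate 1 with replicate 2 (0.326). A fit with the replicate number as a block and one with DESeq2 1.42.0 were among the 29 alternatives.

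Genes were named as up to 5 per list by mean CPM or by change from untreated to 0.25 µM, and, among genes of at least 10 CPM, as the 5 lowest unadjusted p in each direction from 0.5 to 1 µM, the 6 narrowest intervals, the 6 called with the largest change to 0.25 µM in each direction, the 5 largest bends in each direction, the 6 farthest deviations of replicate 3 in each direction and the 5 widest bounds. Exceptions of a list and genes called in an alternative were named after their values were seen. The lists and the comparison itself were chosen with earlier results of these data known. No sequence bore on this comparison. A gene that this rule selects is not reported here.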

Additional observations from a re-analysis of the deposited data

Results flagged for a closer look

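The change from 0.5 to 1 µM differed from the change from 0.25 to 0.5 µM in 2277 genes by a test of the difference itself (edgeR, adjusted p under 0.05). Both changes were measured against the same 0.5 µM libraries. No test of outlying samples applied to groups of 3.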

How the results depend on the processing

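Over the 29 alternatives, 270 of the main values were counts within 1.5 times of the reported one or medians that moved by less than the spread between replicates, and 30 moved further. The medians of the genes higher and lower at 0.25 µM lay between -0.045 and 0.059 and between -0.055 and 0.061, on both sides of 0. No direction turned in a called value. The last step held 1 called gene with limma on log2(FPKM + 1) and 1 with log2(FPKM + 0.1), in both DYDC2, a gene with a mean of 0.526 CPM (adjusted p = 0.0108 and 0.0334), and 2 when only the 2 groups were fitted without replicate 3 at 0.5 µM, a fit chosen after seeing the data. It held 0 whichever single library was left out.

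Genes at an unadjusted p under 0.05 (372) numbered 152 with at least 10 counts in every library, 986 with at least 1 count in any library, 244 with only the 2 groups, 656 and 610 with limma on log2(FPKM + 1) and log2(FPKM + 0.1), 1614 without replicates 3 at 0.25 and 0.5 µM together, 1814 in the fit of 2 groups without replicate 3, and 331 to 1090 with 1 library left out, the highest without replicate 3 at 0.5 µM. Genes called from 0.25 to 0.5 µM (7211) were 4794 with only the groups compared. Called bends (2277) were 3653 without both replicates 3 and 1328 to 3345 with 1 library left out (1488 without replicate 1, 1328 without replicate 2 and 3345 without replicate 3 at 0.5 µM).

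Genes bounded within 2-fold (14292) were 23380 with limma on log2(FPKM + 1), and those within 1.5-fold (7567) 21845 there, 16055 with log2(FPKM + 0.1) and 3630 to 8544 with 1 library left out. A pseudocount pulls low genes towards no change, so those FPKM counts are not comparable with the others. At 10 CPM and above, bounds within 1.5-fold (7144) were 3611 to 7972 with 1 library left out: 4041 and 3611 without replicates 1 and 2 at 0.5 µM, and 3960, 4372 and 3913 without replicates 1, 2 and 3 at 1 µM. At 100 CPM and above the bounded genes were 2343 within 2-fold and 1800 within 1.5-fold. Leaving out a library leaves fewer samples at that dose. Other scalings moved the median of the last step over all genes by at most 0.032. Of the single named genes and lists, 1655 values were unchanged by these criteria, 6 list medians moved, 9 bounds were gained (PKLR and HEMGN), and 2 bounds (CDC25A) and 1 bend (SLAMF6) were lost.

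Equal replicate numbers did not pair the samples of 0.5 and 1 µM: the deviations from the group means of same-numbered libraries at 0.5 and 1 µM correlated at -0.349, -0.071 and 0.345. Unlike-numbered libraries of these doses correlated at -0.518 to 0.564, highest for replicate 1 at 0.5 µM with replicate 2 at 1 µM. With the replicate number as a block, 0 genes were called and 346 had an unadjusted p under 0.05 over the last step, 7161 were called from 0.25 to 0.5 µM and 2238 for the bend, and 14454 and 7683 were bounded within 2-fold and 1.5-fold (9970 and 7264 at 10 CPM and above). The medians of the genes higher and lower at 0.25 µM were 0.0091 and 0.024. The block moved none of these counts by over 1.5 times.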
